A study of Mus musculus with 11 samples.

Results

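The genes of tetrahydrobiopterin synthesis and recycling were examined in the adrenals of mINDY-KO mice and WT littermates. They were 7 of the 16593 genes named on the array, Gch1, Pts, Spr, Gchfr, Pcbd1, Pcbd2 and Qdpr, selected by gene symbol from the annotation of the array, with earlier results of the same genotype comparison known. The differences between genotypes given here are therefore a description of these mice and support nothing further. The array carried 10 probes for them among 25697 probes, and all 10 were among the 13341 probes that were measured above background in at least 5 of the 10 mice.

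mINDY is a plasma membrane citrate transporter encoded by Slc13a5. mINDY-KO mice were homozygous for the tm1.2Helf deletion allele of Slc13a5, which was made with an Hprt1-Cre transgene and had been backcrossed to C57B/6J, so that the deletion was not limited to 1 tissue. WT mice were littermates, and both groups were males of 12 to 16 weeks on standard chow. Total RNA from adrenals, cortex and medulla together, of 5 mINDY-KO and 5 WT mice was hybridized to 11 single-channel Illumina bead arrays, 5 from mINDY-KO and 6 from WT mice, since WT replicate 1 was run again as a technical repeat and its arrays were averaged. In such bulk RNA, fewer cells of a type and less RNA per cell cannot be told apart.

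Tetrahydrobiopterin is the reduced pterin cofactor of the aromatic amino acid hydroxylases, nitric oxide synthases and alkylglycerol monooxygenase. It is made from GTP by GTP cyclohydrolase (Gch1), 6-pyruvoyltetrahydropterin synthase (Pts) and sepiapterin reductase (Spr). Once it has been used by a hydroxylase, it is regenerated by pterin carbinolamine dehydratase (Pcbd1, Pcbd2) and dihydropteridine reductase (Qdpr). In the adrenal medulla it is required by tyrosine hydroxylase (Th), the rate-limiting enzyme of catecholamine synthesis.

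Median signals were 122 to 238 on the mINDY-KO arrays and 150 to 202 on the WT arrays, and mINDY-KO replicates 3 and 4 were the dimmest, at 127 and 122. Between 13260 and 13538 probes were detected on each array. The number of arrays limits the precision. Values are given as log2 units above the mean of each array, after each array was set to the same spread. On this scale the 2 arrays of WT replicate 1 correlated across probes with r = 0.996, against 0.981 to 0.994 between WT mice. Chromaffin genes of the medulla and steroidogenic genes of the cortex were both among the measured genes, as a whole adrenal should have. The Slc13a5 probe was above background on 0 of 11 arrays, with detection p of 0.0714 to 0.357, so that it does not check the genotype labels.

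Gch1, whose product converts GTP to dihydroneopterin triphosphate and limits the rate of synthesis, lies at chr14:47153895-47189413 in GRCm38.p6, on the minus strand. Its brighter probe stood at 3.89, 3.90, 4.20, 4.12 and 4.20 in mINDY-KO replicates 1 to 5, against 3.84, 3.66, 3.53, 3.59 and 3.70 in WT replicates 1 to 5. All 5 mINDY-KO mice were above all 5 WT mice, with a gap of 0.044 between the lowest mINDY-KO and the highest WT mouse. The mean was 4.06 ± 0.16 in mINDY-KO and 3.66 ± 0.12 in WT mice (SD, n = 5 each), a log2 difference of 0.40 (SE 0.088), or 1.32-fold.

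The brighter Gch1 probe ranked 34 of 13341 probes by unadjusted p (4.48e-04), but after adjustment over all probes it did not pass the test (limma, adjusted p = 0.157). When WT replicate 1 was represented by its technical repeat alone, at 3.90 in place of 3.84, the genotypes overlapped. Before any scaling, the signals were 5834, 7731, 3688, 2855 and 6490 in mINDY-KO replicates 1 to 5, against 3417, 4216, 3737, 4423 and 4784 in WT replicates 1 to 5, where the first array of WT replicate 1 is given. These unscaled signals overlapped, and the low mINDY-KO signals were those of the dimmest arrays, replicates 3 and 4. Relative to the median signal of its array, mINDY-KO replicate 4 (2855, median 122) was still below WT replicate 5 (4784, median 195). The scale used here sets the spread of each array as well, and on it the genotypes were apart. Without mINDY-KO replicates 3 and 4, the log2 difference was 0.33 (SE 0.10, adjusted p = 0.311 by limma).

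The dimmer Gch1 probe had values of 2.13, 2.19, 2.28, 2.03 and 2.52 in mINDY-KO mice, against 2.30, 1.97, 1.97, 2.08 and 1.90 in WT mice. Here only mINDY-KO replicate 5 was above all WT mice, and WT replicate 1 was above 4 of the mINDY-KO mice. The log2 difference was 0.18 (SE 0.10, adjusted p = 0.538 by limma), and without mINDY-KO replicate 5 it was 0.11. With genotype means removed, the probes of Gch1 followed each other across the 10 mice with r = 0.57 (exact two-sided permutation test, p = 0.123, adjusted p = 0.164 over 4 relations), and rho was 0.49 (p = 0.196, adjusted p = 0.361, exact permutation). Without the pair of mice farthest from the median, r was 0.021, so that this relation rested on them. The exons read by each probe are not given in the sources used here.

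The 250 bases before the RefSeq start of Gch1 (chr14:47189414-47189663, minus strand, GRCm38.p6) and of Th (chr7:142899996-142900245, minus strand) are shown because both genes belong to catecholamine synthesis and the brighter Gch1 probe is set against Th and other chromaffin genes, mouse by mouse, further on. Capitals mark TGACG, the core of the cAMP response element, and CCAAT, the box bound by NF-Y, in Gch1, and the whole palindromic element TGACGTCA in Th.
Gch1: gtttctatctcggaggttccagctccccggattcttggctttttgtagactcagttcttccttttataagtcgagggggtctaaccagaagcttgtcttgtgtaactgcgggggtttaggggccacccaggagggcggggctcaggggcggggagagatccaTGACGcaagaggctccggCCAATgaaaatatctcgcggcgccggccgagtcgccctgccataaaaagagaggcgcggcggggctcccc
Th: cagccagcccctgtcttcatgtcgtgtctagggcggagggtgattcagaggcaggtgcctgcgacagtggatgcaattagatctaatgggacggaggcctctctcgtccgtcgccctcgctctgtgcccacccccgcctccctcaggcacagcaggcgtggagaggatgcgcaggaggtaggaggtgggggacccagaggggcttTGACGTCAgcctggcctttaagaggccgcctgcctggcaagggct
In Gch1, TGACG began 88 bases and CCAAT 70 bases before the start, and in Th the palindrome began 45 bases before it. Both strands were searched, and the TGACG matches of Th lie on both strands within its palindrome. Of 32851 RefSeq promoters of the same length, 17.8% held TGACG, 33.8% CCAAT and 1.55% TGACGTCA. Among the other members, only Pcbd2 held TGACG, 26 bases before the start used for it, and Gchfr and Qdpr held CCAAT. The start used for Pcbd2 and for Pts lies inside the gene span given further on. The stretch searched for Pcbd2 (chr13:55727118-55727367) is thus wholly within its span, and that for Pts (chr9:50528657-50528906) partly. Such matches describe the sequence and not the binding of a factor.

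Pts (chr9:50521617-50528716) takes the second step of synthesis. Its brighter probe stood at 2.42, 2.65, 2.69, 2.61 and 2.47 in mINDY-KO mice, against 2.56, 2.47, 2.25, 2.54 and 2.47 in WT mice. The ranges overlapped, and 3 mINDY-KO mice were above all WT mice. The log2 difference was 0.11 (SE 0.081, adjusted p = 0.667 by limma), and it was 0.057 without WT replicate 3 and 0.054 without mINDY-KO replicates 3 and 4. The dimmer Pts probe had 0.92, 1.09, 1.29, 0.55 and 0.99 in mINDY-KO mice, against 0.57, 0.87, 0.82, 1.05 and 0.90 in WT mice, with a log2 difference of 0.13 (SE 0.12, adjusted p = 0.753). On this probe mINDY-KO replicate 4 was the lowest of all mice and mINDY-KO replicate 3 the highest, and the log2 difference was 0.23 without the lowest, 0.045 without the highest and 0.058 without WT replicate 1. The probes of Pts did not share their spread within genotypes (r = 0.14, p = 0.721 by exact permutation, adjusted p = 0.721; rho = 0.41, p = 0.271, adjusted p = 0.361).

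Spr (chr6:85133680-85137764) completes the synthesis. Its values were 1.56, 1.57, 1.61, 1.59 and 1.50 in mINDY-KO mice, against 1.46, 1.46, 1.58, 1.63 and 1.41 in WT mice. The SD between mINDY-KO mice was 0.040, against 0.092 between WT mice, and every mINDY-KO value lay within the WT range. The log2 difference was 0.057 (SE 0.067, adjusted p = 0.805 by limma), and 0.032 without WT replicate 5.

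Gchfr (chr2:119167788-119172389) encodes the feedback regulator that binds GTP cyclohydrolase and lets tetrahydrobiopterin inhibit it. Both of its probes were near background, with detection p of up to 0.0439 and 0.0389. The brighter probe stood at -0.56, -0.57, -0.61, -0.58 and -0.68 in mINDY-KO mice, against -0.60, -0.69, -0.84, -0.59 and -0.52 in WT mice. Every mINDY-KO value lay within the WT range, and the log2 difference was 0.047 (SE 0.073, adjusted p = 0.859 by limma). For the dimmer probe the range was -0.82 to -0.54 in mINDY-KO and -0.82 to -0.45 in WT mice, and the log2 difference was -0.0018 (SE 0.087, adjusted p = 0.997). Both probes followed each other within genotypes with r = 0.67 (exact permutation p = 0.0569, adjusted p = 0.164) and rho = 0.59 (p = 0.0797, adjusted p = 0.319), and r was 0.65 without the pair of mice farthest from the median.

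Pcbd1 and Pcbd2 encode the carbinolamine dehydratases of recycling. Pcbd1 (chr10:61089331-61094329) stood at 0.23, 0.10, -0.058, -0.061 and -0.13 in mINDY-KO mice, against -0.019, -0.055, -0.34, -0.039 and 0.048 in WT mice. The ranges overlapped, mINDY-KO replicates 1 and 2 were the highest, and WT replicate 3 was below all other mice. The log2 difference of 0.10 (SE 0.091, adjusted p = 0.748 by limma) was 0.042 when mINDY-KO replicate 1 was left out and 0.030 when WT replicate 3 was.

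Pcbd2 (chr13:55727097-55776830) had 2.93, 3.05, 3.14, 3.21 and 2.79 in mINDY-KO mice, against 2.90, 3.08, 2.61, 3.11 and 3.09 in WT mice. Here too WT replicate 3 was the lowest of all mice. The log2 difference was 0.067 (SE 0.11, adjusted p = 0.863 by limma), and it was -0.020 without WT replicate 3 and -0.034 without mINDY-KO replicates 3 and 4. Qdpr (chr5:45434032-45450229), the reductase that returns dihydrobiopterin to its active form, stood at 2.57, 2.67, 2.54, 2.73 and 2.96 in mINDY-KO mice, against 2.72, 2.48, 2.69, 2.51 and 2.81 in WT mice. Only mINDY-KO replicate 5 was above all WT mice, and the log2 difference was 0.056 (SE 0.094, adjusted p = 0.871 by limma) with it and -0.011 without it.

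**Figure D1:**
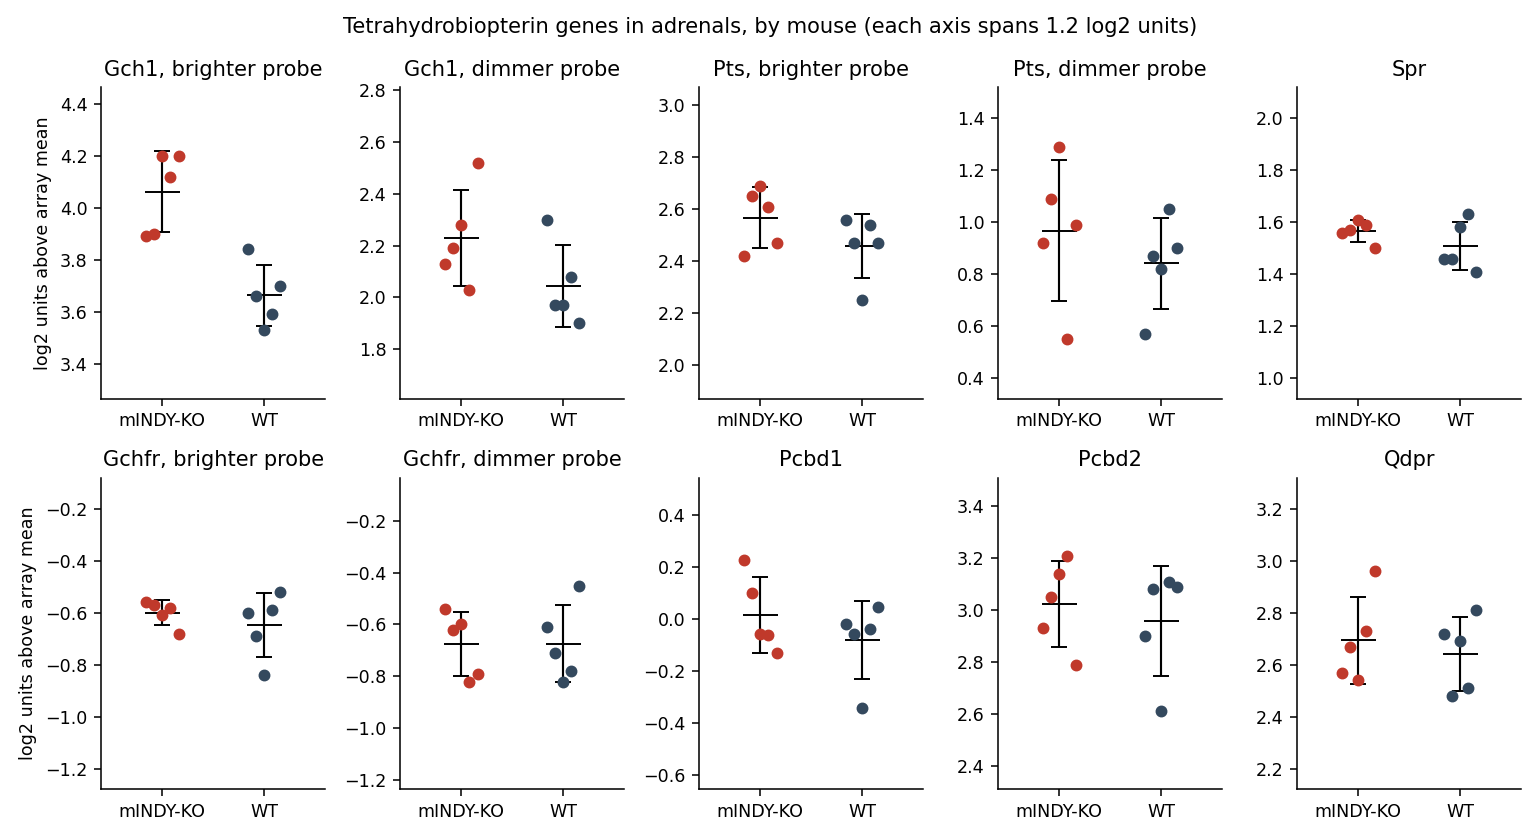
Values of the 10 probes of tetrahydrobiopterin genes in log2 units above the array mean, each axis with the same span. Points are mice (5 mINDY-KO, 5 WT) and bars are mean and SD. Only for the brighter Gch1 probe do all 5 mINDY-KO mice lie above all 5 WT mice.

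Of the 10 probes, 0 passed an adjusted p of 0.05 in limma and 1, the brighter Gch1 probe, had an unadjusted p under 0.05. Over all 13341 probes these shares were 0.015% and 10.9%. All mINDY-KO mice were above all WT mice for 1 of the 10 probes and below them for 0, against 0.742% and 1.32% of all probes. The mean was higher in mINDY-KO mice for 9 of the 10 probes, and for 7 of 7 genes by the brighter probe, against 44.1% of all probes. The median log2 difference over the brighter probes was 0.067, against -0.017 over all probes. Since the genes were chosen with this comparison in view, nothing is read from these counts. The count of 7 genes was 5 without WT replicate 3, where Gchfr stood at -0.0011 and Pcbd2 at -0.020.

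WT replicate 3 was the lowest WT mouse on 6 of the 10 probes, which belonged to Gch1, Gchfr (both probes), Pts, Pcbd1 and Pcbd2. The share of all probes on which this mouse was lowest was not worked out, so that the count does not set these genes apart. The array of this mouse had a median signal of 183, within the range of the other WT arrays. Between the first array and the technical repeat of WT replicate 1, the values of the 10 probes differed by -0.079 to 0.33 (repeat minus first array), whereas the SD between WT mice was 0.092 to 0.21. The difference of 0.33 belonged to the dimmer Gchfr probe, near background, and for both Gch1 probes it was 0.11.

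The enzymes that use tetrahydrobiopterin were next on the list. Of 7 such genes with a probe, 2, Th and Nos3, were above background in at least 5 mice. The tryptophan hydroxylases Tph1 and Tph2, the nitric oxide synthases Nos1 and Nos2, and Agmo were not. Th stood at 3.40, 3.18, 3.80, 3.96 and 4.54 in mINDY-KO mice, against 4.38, 4.10, 3.61, 3.53 and 3.79 in WT mice. Both genotypes spanned low and high values, with an SD of 0.53 in mINDY-KO and 0.35 in WT mice, and the log2 difference was -0.11 (SE 0.22, adjusted p = 0.898 by limma). Nos3, the endothelial nitric oxide synthase, averaged 0.44 ± 0.18 in mINDY-KO and 0.38 ± 0.12 in WT mice by its brightest probe (SD, n = 5 each; log2 difference 0.064, SE 0.091, adjusted p = 0.846). The other Nos3 probes had log2 differences of -0.12 (SE 0.064, adjusted p = 0.536, 4 mINDY-KO mice below all WT mice) and -0.10 (SE 0.075, adjusted p = 0.667, 3 below), so that the probes of Nos3 disagreed in sign.

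Among genes of pterin salvage and side reactions, 5 were measured, the mINDY-KO mean was above the WT mean for 5 and below it for 0, and 0 passed an adjusted p of 0.05 in limma (2 had an unadjusted p under 0.05). Over all probes, 44.1% had a higher mean in mINDY-KO mice and 10.9% an unadjusted p under 0.05. All mINDY-KO mice were above all WT mice for 0.742% of all probes and below them for 1.32%. These shares stand beside the lists below as well, which were also chosen with earlier results known. The aldo-keto reductase gene Akr1b8 averaged 2.44 ± 0.11 in mINDY-KO and 2.23 ± 0.060 in WT mice, and all 5 mINDY-KO mice were above all WT mice (log2 difference 0.22, SE 0.071, adjusted p = 0.297). Xdh, the xanthine dehydrogenase of purine breakdown, stood at 2.83, 2.44, 2.91, 2.64 and 3.08 in mINDY-KO mice, against 2.48, 2.24, 2.15, 2.59 and 2.32 in WT mice. For Xdh 4 mINDY-KO mice were above all WT mice, and the log2 difference was 0.42 (SE 0.12, adjusted p = 0.214). The carbonyl reductase gene Cbr3 had a log2 difference of 0.10 (SE 0.092) and Dnajc12, which encodes a co-chaperone of the aromatic amino acid hydroxylases, of 0.057 (SE 0.085). The list median was 0.10, against -0.017 over all probes.

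GTP is the substrate of Gch1. Of 14 genes for its supply, 12 were measured, with the mINDY-KO mean above the WT mean for 8 and below it for 4, and 0 passed an adjusted p of 0.05 (limma, 2 with an unadjusted p under 0.05). The lowest p belonged to genes of purine synthesis. Adsl averaged 0.45 ± 0.042 in mINDY-KO and 0.64 ± 0.13 in WT mice (log2 difference -0.19, SE 0.075, adjusted p = 0.380). Atic averaged 1.81 ± 0.10 in mINDY-KO and 1.99 ± 0.063 in WT mice by its brightest probe (log2 difference -0.17, SE 0.070, adjusted p = 0.400), whereas the other Atic probes had log2 differences of 0.15 (SE 0.077, adjusted p = 0.509) and 0.056 (SE 0.13, adjusted p = 0.914), the opposite sign. Nme1, a nucleoside diphosphate kinase, and Paics, a further enzyme of purine synthesis, had log2 differences of 0.17 (SE 0.10) and 0.18 (SE 0.11). The list median was 0.041.

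**Figure D2:**
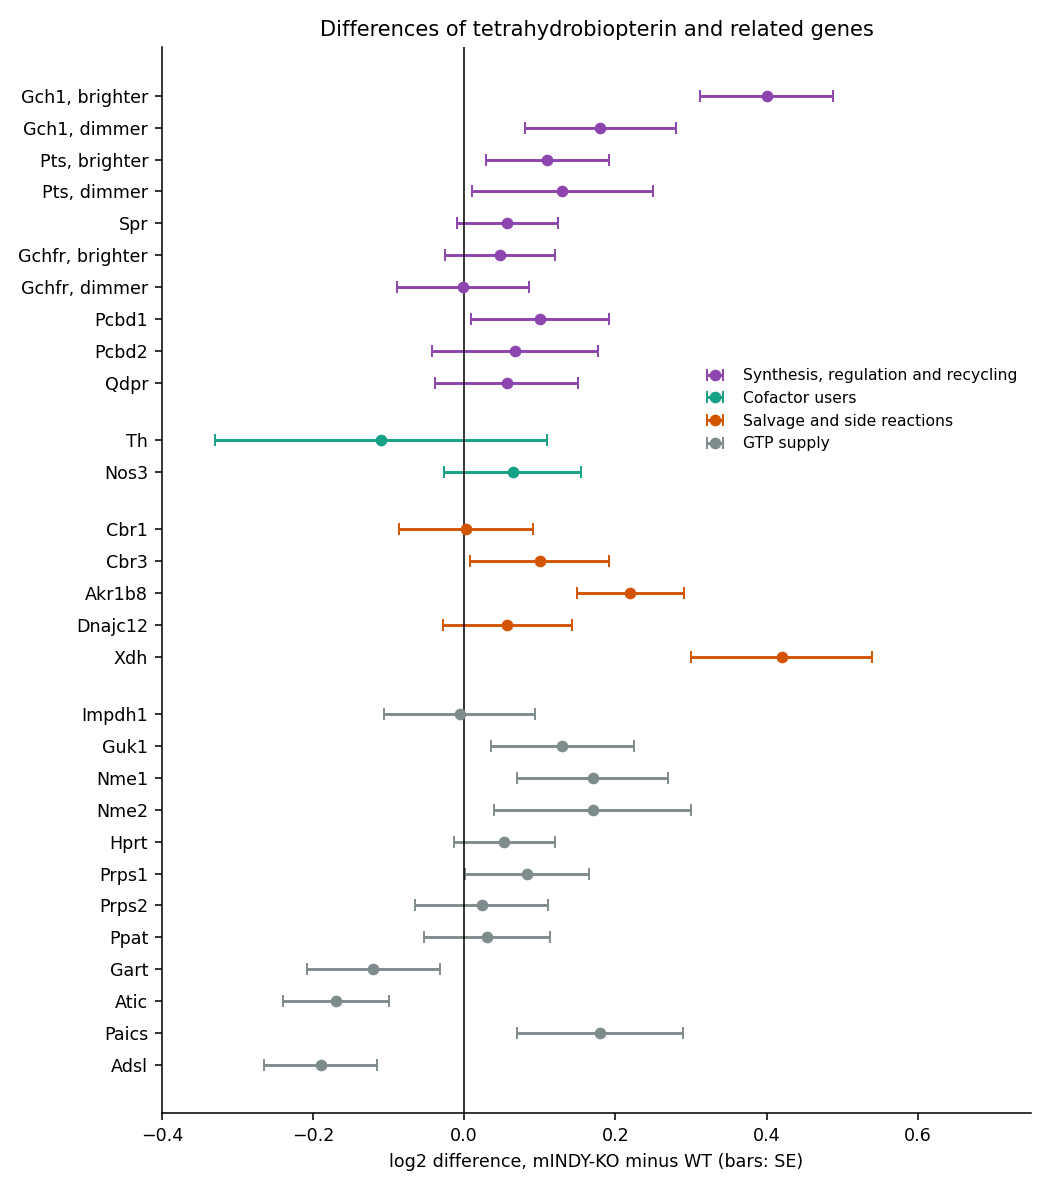
Log2 difference (mINDY-KO minus WT, 5 mice each) of the 10 probes of tetrahydrobiopterin genes and of the brightest measured probe of each gene that uses the cofactor, salvages it or supplies GTP. Points are differences and bars are SE. Gch1 (0.40) and Xdh (0.42) lie farthest to the right, and Adsl (-0.19) farthest to the left.

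In the medulla, tyrosine hydroxylation is followed by the other steps of epinephrine synthesis. Of 13 other genes of epinephrine synthesis and chromaffin cells, 11 were measured, with the mINDY-KO mean above the WT mean for 1 and below it for 10, and 0 passed an adjusted p of 0.05 (limma, 2 with an unadjusted p under 0.05). The median of this list was -0.17, and the vesicular transporter gene Slc18a1 was not above background. Ddc, the decarboxylase after Th, had 2.37, 2.57, 2.33, 2.38 and 2.51 in mINDY-KO mice, against 3.07, 2.73, 2.73, 2.68 and 2.69 in WT mice. All 5 mINDY-KO mice were below all WT mice, with a log2 difference of -0.35 (SE 0.087, adjusted p = 0.170). Scg2, a granin of secretory granules, had a log2 difference of -0.24 (SE 0.11), and the transcription factor genes Gata3 and Phox2a had -0.23 (SE 0.11) and -0.13 (SE 0.069), none past the test (adjusted p = 0.453, 0.498 and 0.538).

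The spread between mice of one genotype does not use the difference between the genotype means. It was used to ask whether the members followed the medulla, the cortex or the brightness of the array. These tests too were chosen with earlier results of these data known. A chromaffin level was taken as the mean of Ddc, Dbh, Pnmt, Chga, Chgb, Scg2, Slc18a2 and Th, and a cortex level as the mean of Star, Cyp11a1, Cyp11b1, Cyp21a1 and Hsd3b1. The chromaffin level was 3.28, 3.20, 3.59, 3.62 and 3.81 in mINDY-KO mice, against 3.98, 3.72, 3.49, 3.38 and 3.61 in WT mice. It thus varied within both genotypes, from 3.20 to 3.81 in mINDY-KO and from 3.38 to 3.98 in WT mice. The levels were in part related. mINDY-KO replicates 1 and 2 were the lowest mINDY-KO mice in the chromaffin and the cortex level, whereas the WT cortex level spanned only 4.49 to 4.57. WT replicate 1, highest in the chromaffin level, had the dimmest WT array, but mINDY-KO replicate 5, highest in its genotype, did not have a dim array. How far a relation with one level carries another was not tested.

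With genotype means removed, the brighter Gch1 probe followed the chromaffin level over the 10 mice with r = 0.92 (exact two-sided permutation test over 14400 pairings within genotypes, p = 0.00271) and rho = 0.92 (p = 0.00556). Adjusted over the 21 relations of 7 genes with 3 levels, p was 0.0569 for r and 0.117 for rho, so that the relation did not pass the test. Without mINDY-KO replicate 2 and WT replicate 1, the mice farthest from the median level, r was 0.87. By single genes, r with Gch1 was 0.91 for Chga, 0.87 for Pnmt, 0.86 for Th, 0.83 for Chgb, 0.68 for Dbh, 0.64 for Scg2, 0.31 for Slc18a2 and 0.29 for Ddc, given as a description. For the dimmer Gch1 probe, r with the chromaffin level was 0.57 (exact permutation p = 0.117, adjusted p = 0.164) and rho was 0.32 (p = 0.410, adjusted p = 0.410), a relation chosen after its companion had been seen.

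The relation of Gch1 with the other levels was less close. With the cortex level r was 0.68 (exact permutation p = 0.114, adjusted p = 0.699) and rho 0.68 (p = 0.0786, adjusted p = 0.659), and with the log2 median signal of the array r was -0.62 (p = 0.144, adjusted p = 0.699) and rho -0.49 (p = 0.245, adjusted p = 0.659). Both depended on the normalization, with r of 0.13 for the cortex level and -0.19 for the array signal after quantile normalization, and 0.11 and -0.20 after neqc. For the array signal, r was -0.81 without mINDY-KO replicate 5. The cortex level was 4.63 ± 0.24 in mINDY-KO and 4.54 ± 0.032 in WT mice (SD, n = 5 each), and the log2 median signal was 7.40 ± 0.42 in mINDY-KO and 7.52 ± 0.14 in WT mice. As the mINDY-KO mice with dim arrays also had high Gch1 and the highest cortex values, the part of array brightness in these relations was not tested.

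Set against the chromaffin level of the same mouse, the brighter Gch1 probe stood at 0.60, 0.69, 0.61, 0.50 and 0.40 in mINDY-KO mice, against -0.14, -0.061, 0.040, 0.21 and 0.082 in WT mice. The genotypes were apart, from 0.40 to 0.69 in mINDY-KO and from -0.14 to 0.21 in WT mice, with means of 0.56 ± 0.11 in mINDY-KO and 0.025 ± 0.13 in WT mice (SD, n = 5 each). For the dimmer probe the same measure ran from -1.60 to -1.02 in mINDY-KO and from -1.75 to -1.30 in WT mice, and the genotypes overlapped. This measure was chosen after the values had been seen, combines Gch1 with genes of lower mean in mINDY-KO mice, and was not tested.

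**Figure D3:**
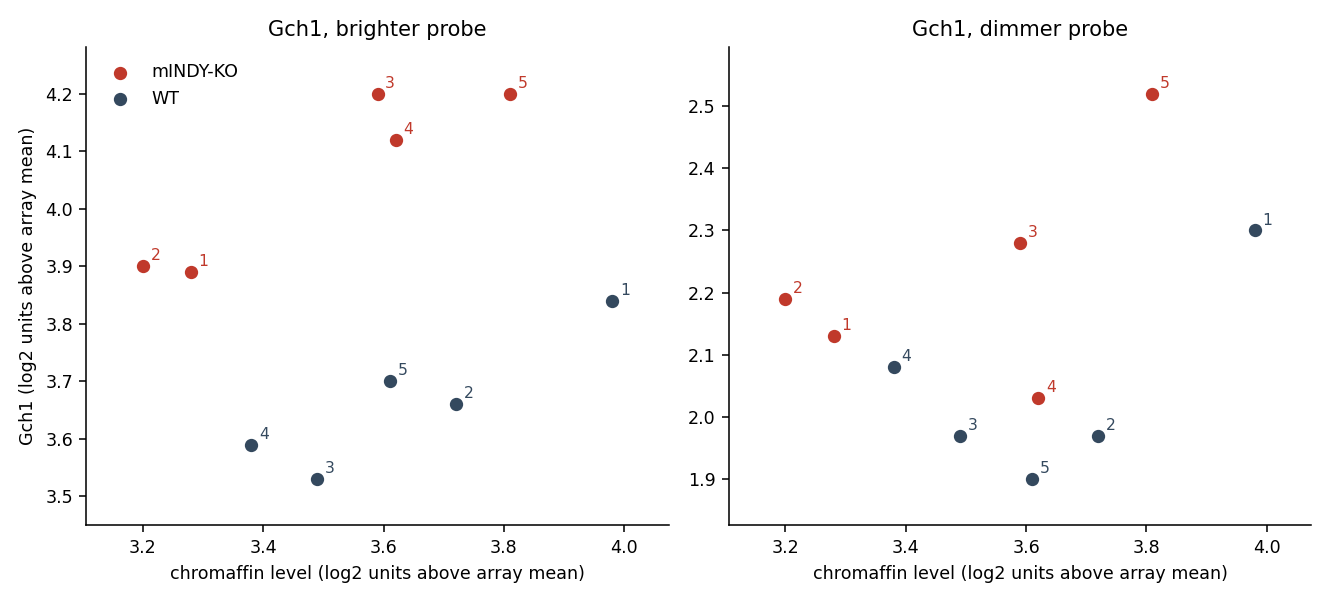
Gch1 against the chromaffin level, both in log2 units above the array mean, for the brighter (left) and the dimmer probe (right). Each point is a mouse, 5 mINDY-KO and 5 WT, numbered by replicate. Within genotypes the brighter probe has r = 0.92 with the chromaffin level, which did not pass the test after adjustment, and the mINDY-KO mice lie above the WT mice.

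With the chromaffin level, r was 0.47 for Qdpr, 0.18 for Pts, -0.070 for Pcbd2, -0.11 for Gchfr, -0.29 for Pcbd1 and -0.52 for Spr (exact permutation, p = 0.132 to 0.850, adjusted p = 0.699 to 0.850), and rho ran from -0.41 for Pcbd1 to 0.38 for Qdpr. Over all 21 relations, 0 passed an adjusted p of 0.05 by r or rho and 1, that of Gch1 with the chromaffin level, had an unadjusted p under 0.05.

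Whole adrenals hold further cells that use this cofactor or carry its enzymes. Of the endothelial markers, 8 were measured, with the mINDY-KO mean above the WT mean for 3 and below it for 5, and their mean level was 1.99 to 2.15 in mINDY-KO and 2.03 to 2.16 in WT mice. All 6 measured macrophage markers had a higher mean in mINDY-KO mice, with a mean level of 1.73 to 2.20 in mINDY-KO and 1.44 to 2.03 in WT mice. Of 9 measured cortex markers, 5 were higher and 4 lower by the mINDY-KO mean, with a mean level of 3.19 to 3.53 in mINDY-KO and 3.24 to 3.52 in WT mice. The list medians were -0.070 for endothelial, 0.18 for macrophage and 0.029 for cortex markers, of which Fdx1 and Nr0b1 were not above background. In none of these lists did a gene pass an adjusted p of 0.05 in limma (2 endothelial, 0 macrophage and 3 cortex genes had an unadjusted p under 0.05), and their part in the Gch1 values was not tested.

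Of the mast cell markers, Cma1, Tpsb2 and Mcpt4 were not above background. Hdc, the histidine decarboxylase, was detected on 11 of 11 arrays and averaged 1.61 in mINDY-KO and 1.80 in WT mice, and Cpa3, a mast cell carboxypeptidase, averaged -0.41 in mINDY-KO and -0.60 in WT mice by its brightest probe. Alb, Apoa1, Ttr, Fgb and Tat of the liver and S100b of Schwann cells were not above background. The remaining liver marker, Serpina1a, and Schwann marker, Mbp, had log2 differences of 0.013 (SE 0.063) and 0.12 (SE 0.10). All 4 measured adipocyte markers had a higher mean in mINDY-KO mice, with a mean level of -0.57 to 0.22 in mINDY-KO and -0.55 to -0.29 in WT mice, whereas Fabp4 was not above background. Of 3 red cell markers, 1 was higher and 2 lower by the mINDY-KO mean, with a mean level of 2.07 to 2.76 in mINDY-KO and 2.12 to 2.84 in WT mice. The list medians were -0.0056 for mast cell, 0.087 for adipocyte and -0.029 for red cell markers. In these lists 0 genes passed an adjusted p of 0.05 in limma, and Cpa3 and Adipoq alone had an unadjusted p under 0.05 (log2 differences 0.19, SE 0.085, and 0.70, SE 0.26). Adipoq stood at 1.16 in mINDY-KO replicate 5 and at -0.65 to -0.033 in the other mINDY-KO mice, against -0.92 to -0.041 in WT mice. For Adipoq 3 mINDY-KO mice were above all WT mice, replicates 2 and 3 only narrowly (-0.033 and -0.037).

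The genes most like each member in their spread within genotypes were found among all named genes, by r over the 10 mice and as a description. Picking the highest r from so many genes over 10 mice yields high values by itself, and no chance level was worked out. For Gch1 they were the proteasome ATPase gene Psmc4 (r = 0.96), the NAD kinase gene Nadk (0.95) and the proton pump gene Atp6v1h (0.94). Closest to Pts were Ephb6 (0.97), Npff (0.96) and Junb (0.93), and to Spr Bok, Gm382 and Ctsl (0.92 each). Gchfr was followed most closely by Mrpl1 (0.94), Map1s and Sdf4 (0.93 each). Among the recycling genes, Pcbd1 had Hook2, Ppp3cc (0.96 each) and Tagap (0.95), Pcbd2 had 1700029P11Rik (0.98), Rnasek (0.96) and Mrpl27 (0.95), and Qdpr had Pabpc1 (0.97), Pibf1 and Il22ra1 (0.95 each). No gene was shared between these lists, and none was a member of the pathway by the way they were drawn up. The log2 differences of the genes most like Gch1 were 0.049 (SE 0.085) for Psmc4, 0.0014 (SE 0.10) for Nadk and 0.20 (SE 0.11) for Atp6v1h, none past the test.

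The Gch1 values were computed under 19 other ways of processing. The log2 difference of the brighter probe ranged from 0.33 to 0.44, with adjusted p of 0.110 to 0.392 in limma, and the genotypes were apart in 18 of these. That of the dimmer probe ranged from 0.11 to 0.25, with adjusted p of 0.431 to 0.759, and the genotypes overlapped in all 19. Each of these settings made the spread of the arrays alike. They therefore cannot show whether the genotypes stay apart on the brighter probe when only the level of the arrays is scaled.

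**Figure D4:**
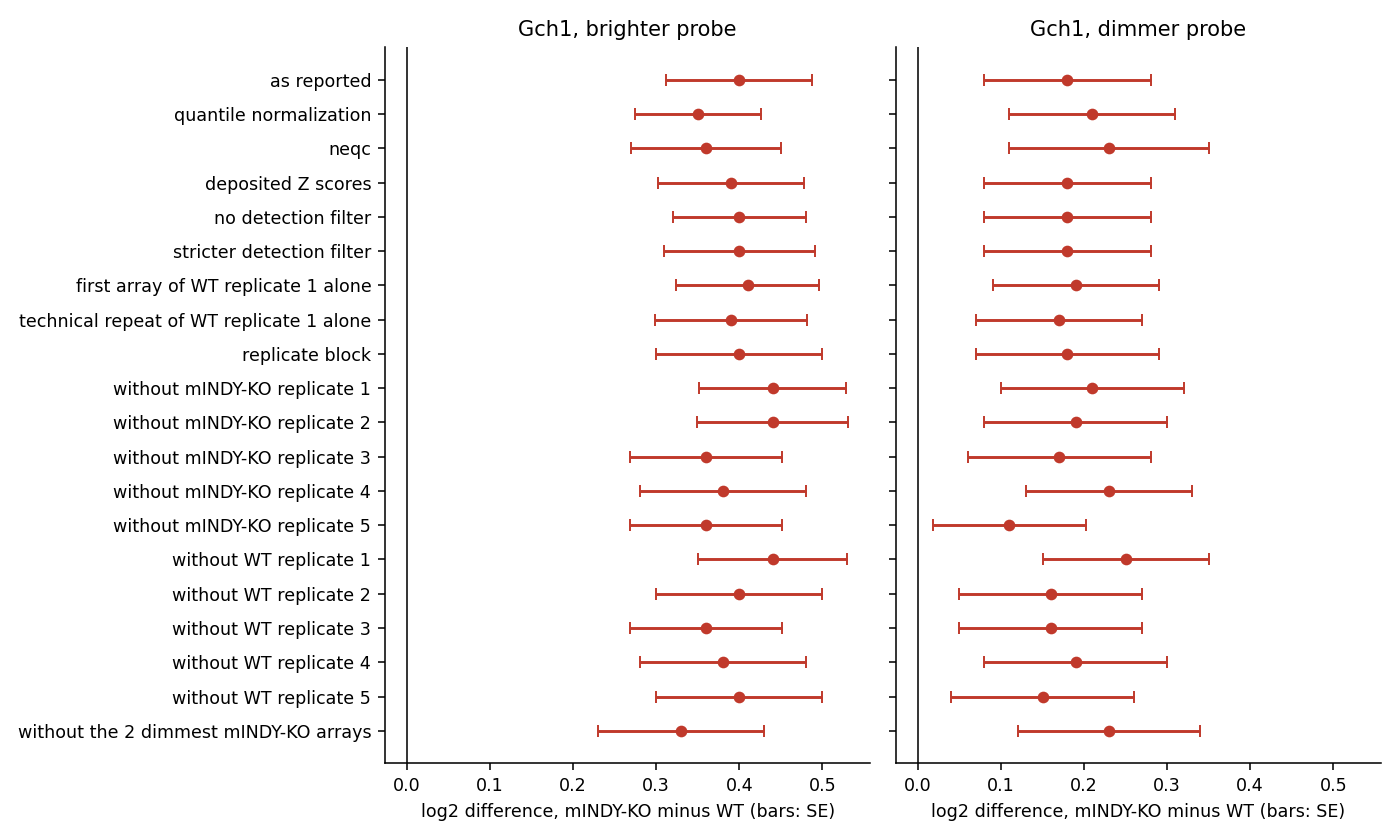
Log2 difference of Gch1 (mINDY-KO minus WT) as reported and under 19 other settings, for the brighter (left) and the dimmer probe (right) on the same axis. Points are differences and bars are SE. The brighter probe stays between 0.33 and 0.44 and the dimmer probe between 0.11 and 0.25.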

How the data were processed

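Gene expression was measured in adrenal RNA of 5 mINDY-KO and 5 WT mice on 11 arrays. The authors deposited the signal intensity of each probe, not normalized across arrays, as GenomeStudio exported it (the submitters' processing notes name version 2011.1), with a deposited detection p-value for each signal. A second table holds the Z score of each probe as deposited by the authors, which equals the log10 signal minus the array mean, divided by the array SD, within 0.0102. The same formula was applied here to the signals, and the result was multiplied by 1.57, the mean SD of the log2 signals over arrays. This gives each array the same mean and spread, so that values are relative to the array mean. It does not necessarily remove a dependence of single probes on the brightness of the array. Both arrays of WT replicate 1 were averaged. Probes with a detection p under 0.05 in at least 5 mice were kept, 13341 of 25697.

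Genotypes were compared with limma (version 3.58.1, R 4.3.3, lmFit and eBayes, two-sided) and Benjamini-Hochberg adjustment over the kept probes. The platform annotation pairs 23978 probes with 1 symbol, 0 with several, and leaves 1719 unnamed here. Updating symbols through the RefSeq table changed 0 and lacked 16 probes. In lists, each gene was represented by its brightest kept probe. Correlations used deviations from genotype means over 10 mice, with exact permutation over 14400 pairings. Promoters and positions are from RefSeq (GRCm38.p6), and all 7 genes matched by symbol. matplotlib (version 3.10.9) drew the figures.

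The members, the gene lists and the tests were chosen with earlier results of these data known. The genes named are every probe of the 7 members, up to 4 measured genes of smallest p of each pathway list with Th, the 3 genes most like each member, and Slc13a5. Genes of the cell type lists named beyond this were chosen after their values were seen. The alternatives were the deposited Z scores, quantile and neqc normalization, all probes without a filter, a stricter filter (detection p under 0.01, 11699 probes), either array of WT replicate 1 alone, the replicate number as a block, each mouse left out in turn, and mINDY-KO replicates 3 and 4 left out. The fit was run on simulated arrays with known differences, in which each probe varied independently of the others. Variation shared between probes of an array was not simulated, so that this run does not bear on array brightness. Slide and scan are not given in the sources used here and were not tested.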

Additional observations from a re-analysis of the deposited data

Results flagged for a closer look

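In 20 groups of 5 mice (10 probes, 2 genotypes), 1 mouse lay apart from the rest of its group by Dixon's criterion. Pcbd1 in WT replicate 3 stood at -0.34 log2 units, whereas the other WT mice were between -0.055 and 0.048. The gap took up 0.736 of the range of the group, above the critical value of 0.71 for 5 mice. Chance alone marks about 1 in 20 groups.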

How the results depend on the processing

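In all 19 alternatives, 0 member probes passed an adjusted p of 0.05. The number of members with a higher mean in mINDY-KO mice was 7 in the settings not named here, 6 without mINDY-KO replicate 5 (Qdpr -0.011), 6 without mINDY-KO replicates 3 and 4 (Pcbd2 -0.034) and 5 without WT replicate 3. Values near 0 changed sign in 7 alternatives for the dimmer Gchfr probe, which the stricter filter removed, and in 1 for the brighter Gchfr probe, which stood at 0.18 under neqc. Over all probes, 2 passed an adjusted p of 0.05, and 0 to 14 in the alternatives, the highest without mINDY-KO replicate 2. The r of Gch1 with the chromaffin level was 0.89 to 0.95 in 18 alternatives, with adjusted p of 0.051 to 0.299.

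With the replicate number as a replicate block, 0 member probes passed, 7 members had a higher mean and the Gch1 difference was 0.40 (adjusted p = 0.328). The numbers are not stated to pair the mice. The deviations of mice of the same number correlated at -0.304 to -0.108, and 0 mice correlated best with their own number. Other variation between mice and arrays enters these values, so that they do not settle whether mice were matched. The replicate block changed no call of a member probe, and over all probes 1 passed with it and 2 without it. The number of arrays and the nearness of Gchfr to background limit what could be detected.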
